A study of Mus musculus with 18 samples.

Results

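Phagocytes kill what they have taken up with reactive oxygen made by the NADPH oxidase and with the contents of their granules, and neutrophils add large amounts of the calcium-binding proteins S100a8 and S100a9 to their cytosol. The mRNAs of granule proteins are made mostly by precursor cells in the bone marrow, and in the brain such mRNAs are known mostly from cells other than neurons. 5-methylcytosine (m5C) is a modified base of RNA that methyltransferases of the NSUN family and Dnmt2 place. Bisulfite turns unmodified cytosine into uracil, which is read as thymine, while m5C is still read as cytosine, so that a cytosine left in the reads can be called as a site.

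10 phagocyte and neutrophil mRNAs of 21013 annotated protein-coding genes were examined, namely Cyba, Anxa1, S100a8, S100a9, Ngp, Camp, Ltf, Lcn2, Lyz2 and Elane. Their sites were the called cytosines in exons of the RefSeq transcripts of each gene, on the gene's strand. The list of genes was chosen by the sites and scores that these libraries were already known to hold, so the counts and scores below describe the genes and were not tested.

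The libraries were made from RNA labelled as that of cultured cerebral cortex neurons of day 18 fetal C57BL/6 mice, and no group carried a transgene or deletion according to the labels. Control neurons were not deprived, OGD/R 1.5 h neurons were kept without glucose and in hypoxia for 1.5 h, and OGD/R 3 h neurons for 3 h. Both deprivation groups were then returned to normal medium for 24 h (oxygen-glucose deprivation and reoxygenation, OGD/R). There were 3 bisulfite libraries in each group. The coverage of the libraries of a group, where it could be compared (control and OGD/R 3 h), differed by less than the sampling noise, so each group was counted as 1 sample (OGD/R 1.5 h too, without that comparison), no p-value was computed, and an SD below describes the spread between 3 sequencing libraries and not between cultures.

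A control library listed 5907 to 6254 sites, an OGD/R 1.5 h library 5423 to 5745 and an OGD/R 3 h library 7266 to 7772. Of these, 3800 to 4146, 3508 to 3749 and 4733 to 5269 lay in mRNA exons. Read depth is not known from these lists. The label of the cells was checked against marker genes: none of 12 neuron genes carried a site in any group, while of 12 intestinal epithelium genes 11 did in control (47 to 58 sites per library), 10 in OGD/R 1.5 h (42 to 48) and all 12 in OGD/R 3 h (164 to 170). Since 6.90% to 8.62% of all annotated genes carried a site in a group, 0 of 12 is close to that background, and the neuron list says little about the label. The intestinal counts of 11, 10 and 12 of 12 genes lay far above the same background, in control too. The reason was not tested, and the cells are called neurons here by their label alone. A gene needs reads, and cytosines that bisulfite left in them, to be listed, so an absent site does not show an absent mRNA. Whether a called cytosine is m5C was not tested here.

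The sites of the 5 mRNAs that carried any lay in a single short stretch of each transcript. These stretches are shown because they hold the whole finding, as at most 30 bases of the mm10 sequence along RefSeq transcripts, 5′ to 3′ on the mRNA strand, with T for U and with the cytosines called in OGD/R 3 h in capitals. Cyba is read from chr8:122432870-122432899 on the minus strand (10 of its 11 sites), Anxa1 from chr19:20390642-20390671 on the minus strand, S100a8 from chr3:90669531-90669560 on the plus strand (7 of its 9 sites) and Ngp from chr9:110419857-110419886 on the plus strand. S100a9 is spliced from chr3:90695668-90695690 in exon 1 and chr3:90695291-90695297 in exon 2, both on the minus strand.
Cyba: CCgggCtgCtgCgtgtgCgCagggtCCtCg
Cyba, cytosines called in control: ccgggctgctgCgtgtgcgcagggtcCtcg
Anxa1: gtCtgaaaCCatCtgagCagagtCtctctt
S100a8: CtttCgtgaCaatgCCgtCtgaaCtggaga
S100a9: aCatCtgtgaCtCtttagCCttgaagagCa
Ngp: agaCaatggCagggCtgtggaagaCCtttg

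Every cytosine in the windows of Cyba, S100a8, S100a9 and Ngp was called in OGD/R 3 h, and only the last 2 of the 8 cytosines of the Anxa1 window were not. Each window occurred 1 time in the mm10 chromosomes, and 1 time when cytosine was read as thymine. For S100a9 this search used the last 30 bases of exon 1, chr3:90695668-90695697.

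In OGD/R 3 h, 5 of the 10 mRNAs carried sites, against a background of 6.90% of all annotated genes. Cyba held 11 sites, S100a8 9, S100a9 7, Anxa1 6 and Ngp 5, and each number was the same in all 3 libraries. The 38 sites were also the same cytosines in the 3 libraries, whereas 30.4% of the 8151 sites on the other mRNAs of OGD/R 3 h were called in all 3. These other mRNAs are the 1428 genes with a site on their representative transcript, fewer than the genes with a site on any of their transcripts that the background counts. In control, only Cyba of the 10 mRNAs carried a site (background 8.62%), with 2, 1 and 1 sites in the 3 libraries. In OGD/R 1.5 h, none of the 10 did in any library (background 8.31%).

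The number of sites per library was therefore 38 ± 0 (SD, n = 3 libraries) in OGD/R 3 h, 1.33 ± 0.577 in control and 0 in each OGD/R 1.5 h library, and the groups did not overlap. As a share of all mRNA sites in a library, these were 0.721%, 0.803% and 0.802% in OGD/R 3 h and 0.0515%, 0.0241% and 0.0263% in control, and these shares did not overlap either. Because the genes were chosen by these sites, the lack of overlap only describes them. The mRNA sites of all genes did not overlap between the groups either. They numbered 4733 to 5269 per library in OGD/R 3 h, 3800 to 4146 in control and 3508 to 3749 in OGD/R 1.5 h. 4 of the 10 mRNAs (Anxa1, S100a8, S100a9 and Ngp) had sites in OGD/R 3 h and in neither other group, against a background of 1.33% of all genes. Of the 38 sites, 36 were not listed in control or OGD/R 1.5 h. A count of isolated sites alone, by a distance of more than 10 nt on the genome, left 1 site per OGD/R 3 h library, and the difference from control turned to -0.333 sites. That site is the S100a9 site in exon 2, which an intron separates from its neighbour, and by distance in the spliced mRNA 0 of the 38 sites were isolated. In RNA from a whole culture, a change in the number of cells that make an mRNA, in the mRNA per cell and in the cytosines that bisulfite left in its reads cannot be told apart from these lists.

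**Figure D1:**
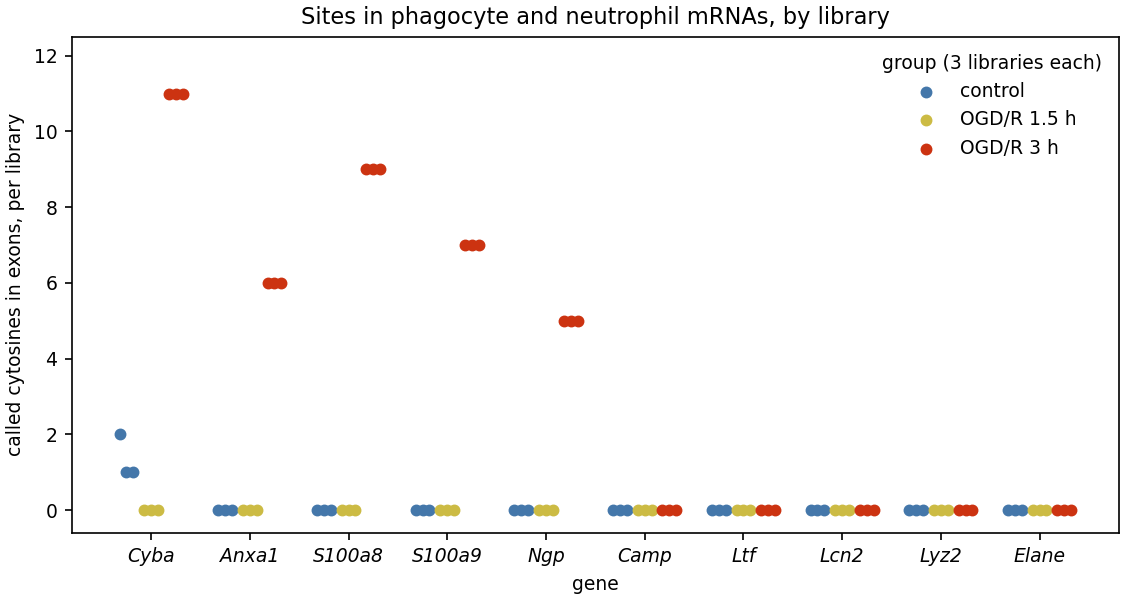
Number of called cytosines in exons (vertical axis) for each of the 10 genes (horizontal axis), with 1 point per library and 3 libraries per group. The 3 OGD/R 3 h points of Cyba sit at 11 and its control points at 2, 1 and 1, and all points of Camp, Ltf, Lcn2, Lyz2 and Elane sit at 0.

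Cyba encodes p22phox, the membrane subunit that holds the catalytic subunit of the NADPH oxidase in place. The gene lies at chr8:122424771-122432940 on the minus strand, and its 759-nt transcript (NM_007806.3, 6 exons) begins with a 5′ UTR of 73 nt. Its 11 sites in OGD/R 3 h lay in exon 1, from nt 42 to nt 73 of the transcript, and the last of them was the base just before the start codon. The 11 sites were all the cytosines of this 32-nt stretch. The nearest cytosine before it lay 10 nt upstream and the nearest after it 7 nt downstream, and neither was listed, nor were the other cytosines among the 217 of the transcript.

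Cyba was the only one of the 10 mRNAs with sites in 2 groups. The cytosine 21 nt before the start codon (chr8, position 122432888) scored 99, 31 and 51 in the control libraries and 643, 634 and 697 in the OGD/R 3 h libraries. The score is that of the calling program and has no unit: it rises with coverage and with methylation level together and stops at 1000, so it gives no level. The means were 60.3 ± 34.9 and 658 ± 34.1 (SD, n = 3 libraries), and the libraries of the 2 groups did not overlap. The cytosine 6 nt before the start codon (position 122432873) was listed in control replicate 1 alone, with a score of 12, and in OGD/R 3 h with 431, 908 and 907. The other 9 Cyba sites were listed in OGD/R 3 h only.

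Scores varied along the Cyba stretch in OGD/R 3 h. The site 32 nt before the start codon had the highest mean, 928 ± 125, with 1000, 1000 and 784 in the 3 libraries. The site next to the start codon had the lowest, 313 ± 27.7, with 297, 345 and 297. Neighbouring sites between 32 and 24 nt before the start codon overlapped in their ranges, with means from 775 to 928. The sites 15 and 13 nt before it, at 389 ± 10.4 and 366 ± 74.4, lay below all of those libraries and overlapped each other. The spread between libraries was widest at the sites 7 and 6 nt before the start codon, with 263, 849 and 907 at the former, where replicate 1 was low at both.

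**Figure D2:**
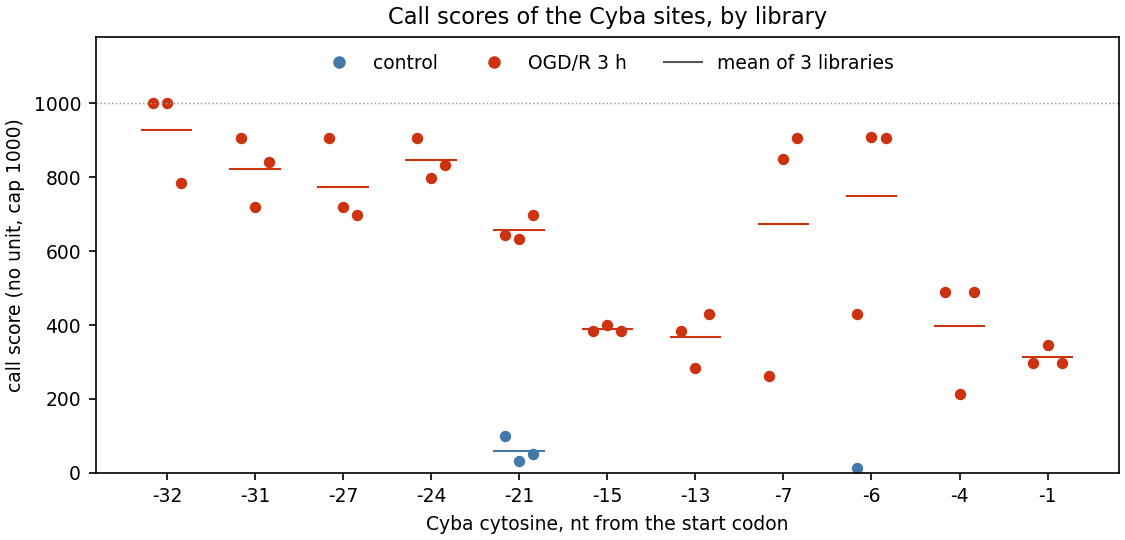
Call score (vertical axis, no unit, capped at 1000, dotted line) of the 11 Cyba cytosines (horizontal axis, nt from the start codon), with 1 point per library and a line at the mean where all 3 libraries of a group list the site. The OGD/R 3 h points run from 212 to 1000, and the control points, at 2 of the cytosines, from 12 to 99.

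Anxa1 encodes annexin A1, a phospholipid-binding protein of phagocytes and of many epithelia that is known to act on formyl peptide receptors and to limit inflammation. Its gene lies at chr19:20373434-20390671 on the minus strand, with a transcript of 1395 nt (NM_010730.2, 13 exons) and a 5′ UTR of 74 nt. The 6 sites lay at nt 3 to 24 of the transcript, in exon 1, and began with its first cytosine. They were all the cytosines in that 22-nt stretch, and the next cytosine, 2 nt further on, was not listed. In each of the 3 OGD/R 3 h libraries all 6 sites scored 1000, the cap, and none was listed in the 6 other libraries. Of the transcript's 284 cytosines, 2.11% were called.

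S100a8 and S100a9 form the calprotectin heterodimer, which binds calcium, zinc and manganese and signals through Toll-like receptor 4 when released. Their genes are neighbours on chromosome 3, at 90669071-90670034 on the plus strand and at 90692630-90695721 on the minus strand. The S100a8 transcript (NM_013650.2, 3 exons, 392 nt) carried its 9 sites in exon 2, at nt 45 to 79, across the start codon: 3 sites lay in the 5′ UTR and 6 in the coding sequence (CDS). This stretch of 35 nt was the longest of the 5, and the 9 sites were 10.8% of the transcript's 83 cytosines, the largest share among the 10 mRNAs. All 9 sites scored 1000 in all 3 libraries.

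The S100a9 transcript (NM_001281852.1, 3 exons, 524 nt, 5′ UTR of 66 nt) carried 7 sites at nt 33 to 60, all in the 5′ UTR. 6 of them lay in exon 1 and the seventh in exon 2 (position 90695292), so this stretch of 28 nt crossed a splice junction and was continuous in the spliced mRNA only. The cytosine 3 nt before the stretch and the one 11 nt after it were not listed. The 6 sites in exon 1 scored 1000 in all 3 libraries, and the site in exon 2 scored 1000, 1000 and 941. S100a8 and S100a9 thus both had sites near the start codon, but in S100a9 they ended 7 nt before it.

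Ngp, the neutrophilic granule protein, is a cystatin-like protein that neutrophil precursors store in their granules. Its gene lies at chr9:110419808-110423012 on the plus strand, with a transcript of 1161 nt (NM_008694.2, 4 exons) and a 5′ UTR of 54 nt. The 5 sites lay in exon 1 at nt 53 to 75, with 1 in the 5′ UTR and 4 in the CDS. They were all 5 cytosines of a 23-nt stretch and 1.58% of the transcript's 317 cytosines. All 5 scored 1000 in all 3 libraries of OGD/R 3 h, and none was listed elsewhere.

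**Figure D3:**
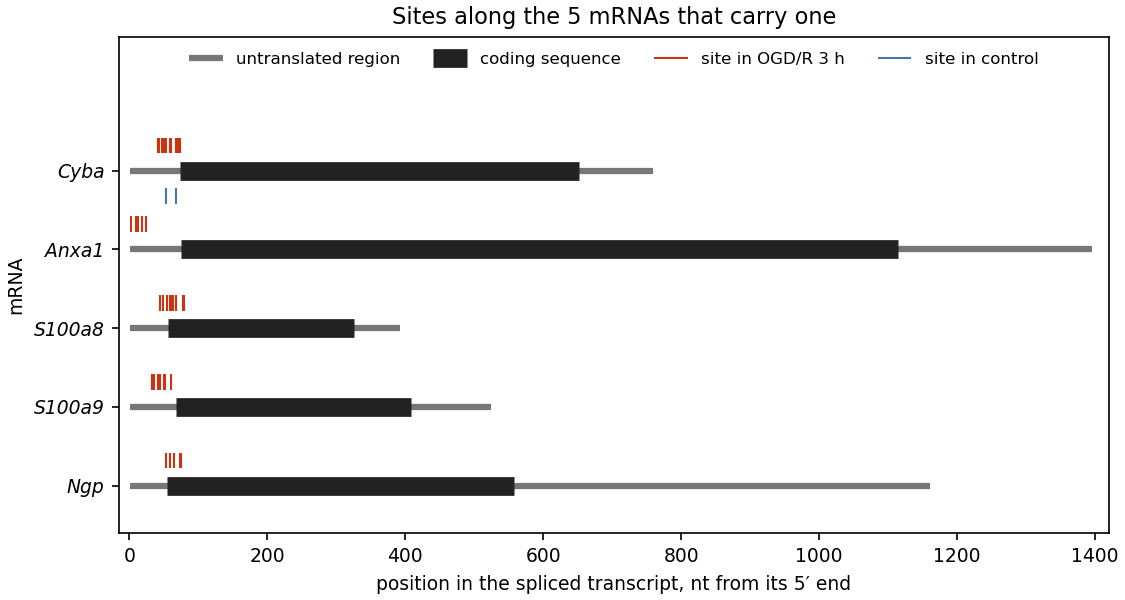
The 5 mRNAs with a site (vertical axis), drawn to scale along the spliced transcript in nt from its 5′ end (horizontal axis), with untranslated regions as thin and coding sequence as thick bars and a tick for each site in OGD/R 3 h (above) and control (below). All ticks lie in the first 100 nt.

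No site was listed in any of the 9 libraries for the other 5 mRNAs. Camp encodes the cathelicidin antimicrobial peptide and has 149 cytosines in its transcript, Ltf the iron-binding protein lactoferrin, with 684, and Lcn2 lipocalin 2, which binds bacterial siderophores, with 257. Lyz2 encodes the lysozyme of macrophages and neutrophils, with 261 cytosines, and Elane neutrophil elastase, with 286. Each of these transcripts had more cytosines than those of S100a8 (83) and S100a9 (114). Lyz1, which encodes the lysozyme of Paneth cells and is a near-identical copy of Lyz2, carried 7, 4 and 10 sites in the control libraries, 1, 1 and 0 in those of OGD/R 1.5 h and 11, 11 and 16 in those of OGD/R 3 h. How the aligner divided reads between these paralogs is uncertain, so the values of both are too.

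The 5 stretches shared a position near the 5′ end. All 38 sites lay in the first 100 nt of their transcripts, against 7.68% of the sites in the other mRNAs of OGD/R 3 h. 28 sites lay in the 5′ UTR, 10 in the CDS and 0 in the 3′ UTR, while the other mRNAs had 18.0%, 71.6% and 10.4% of their sites there. The 5 transcripts were 392 to 1395 nt long, with 5′ UTRs of 54 to 74 nt. Neither comparison was adjusted for transcript length, and the shares of the other mRNAs pool all their sites, so genes with many sites weigh more. 28 of the 38 lay in exon 1. The 10 CDS sites fell on codon positions 1, 2 and 3 in 3, 5 and 2 cases. Sites of 1 stretch share reads, so the 38 sites are 5 stretches and not 38 separate observations.

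Each gene had 1 stretch, in which each site had another at most 10 nt away in the spliced transcript. All cytosines within the 5 stretches were called. Among the other mRNAs of OGD/R 3 h, 58.6% of sites had a neighbour this close, and 60 of their 244 stretches with at least 5 sites (24.6%) had every cytosine called, with a median of 78.6% called. The median span of those stretches was 24 nt, and the 5 stretches here spanned 22 to 35 nt. In control the 2 Cyba sites lay 15 nt apart and formed no stretch.

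**Figure D4:**
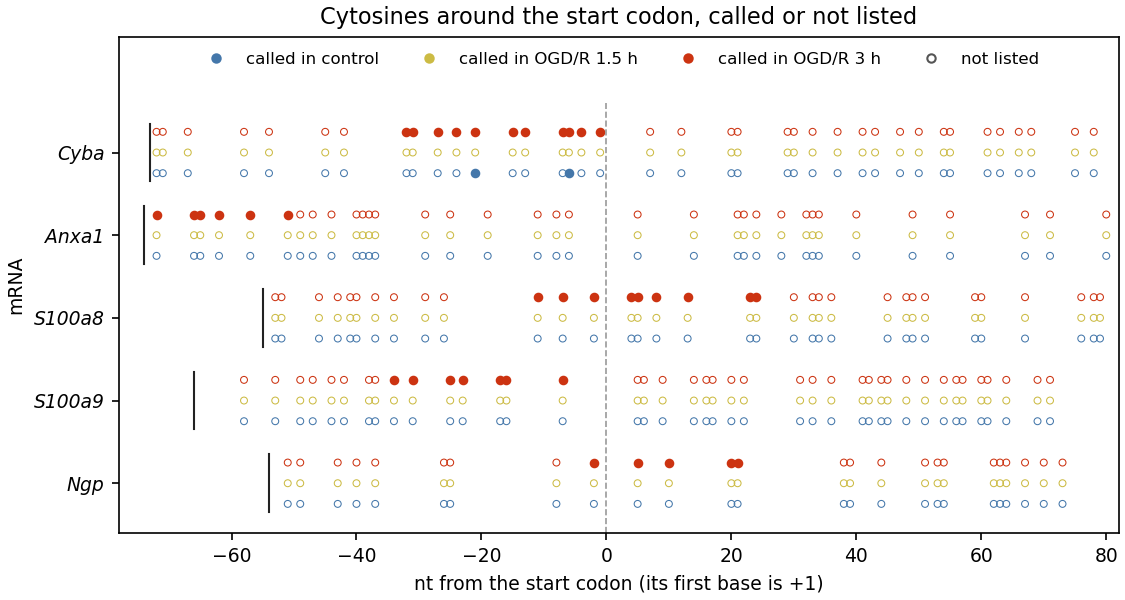
Every cytosine of the 5 mRNAs (vertical axis) from the 5′ end (black bar) to 80 nt past the start codon (dashed line), by its distance from the start codon in nt (horizontal axis). Within each mRNA the rows are OGD/R 3 h (top), OGD/R 1.5 h and control (bottom). Filled circles are called in at least 1 library of the group and open circles are not listed. The filled OGD/R 3 h circles form an unbroken block in each mRNA, and the control row of Cyba has 2.

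The sites lay in all 3 sequence contexts, in shares set here beside those of the other mRNA sites of OGD/R 3 h. CG held 6 of the 38 (15.8%, against 19.5%), CHG 13 (34.2%, against 37.1%) and CHH 19 (50%, against 43.4%), where H is any base but G. 4 of the 6 CG sites were in Cyba and 2 in S100a8. Anxa1, S100a9 and Ngp had none.

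In OGD/R 3 h the median score over the sites of the 10 mRNAs was 1000 in each library, while that of all other mRNA sites was 12, 12 and 11. The 38 sites held 28, 28 and 26 scores at the cap (73.7%, 73.7% and 68.4%), against 2.96%, 3.19% and 3.32% of the other mRNA sites. In control the medians over the Cyba sites were 55.5, 31 and 51, with none at the cap, against 9, 10 and 10 for other mRNAs. Cyba stood apart from the other 4 carriers: none of its 11 sites was at the cap in all 3 OGD/R 3 h libraries, against 26 of the 27 sites of Anxa1, S100a8, S100a9 and Ngp. Its medians in OGD/R 3 h were 489, 720 and 697. The values at the cap are cut off, so their SD of 0 does not show that the libraries were alike.

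Genes of the same pathways were counted in the same way, and their shares are to be read against the 8.62%, 8.31% and 6.90% of all genes with a site in the 3 groups. Of 7 NADPH oxidase genes, 2 carried a site in control, 1 after OGD/R 1.5 h and 2 after OGD/R 3 h, and the counts of the lists below keep this order of groups. Besides Cyba this was Rac1, a small GTPase that activates the oxidase in many cell types, with 4 or 5 sites in every library. The catalytic subunit Cybb and the GTPase Rac2 had none. Of 15 neutrophil granule genes, 1, 0 and 2 had a site, namely Ngp and Olfm4, which encodes olfactomedin 4 and is also a marker of intestinal stem cells. Olfm4 had 0, 0 and 1 sites in the control libraries, 0 in those of OGD/R 1.5 h and 2, 2 and 3 in those of OGD/R 3 h.

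Of 9 S100 genes, 1, 0 and 3 had a site. S100a10, the partner of annexin A2, had 2, 1 and 1 sites in the control libraries, 0 in those of OGD/R 1.5 h and 1, 1 and 0 in those of OGD/R 3 h, so it did not share the pattern of S100a8 and S100a9. Of 10 annexin and formyl peptide receptor genes, 2, 2 and 3 had a site, and neither Fpr1 nor Fpr2, the receptors of annexin A1, was among them. Anxa2 had 1, 0 and 0 sites in the control libraries, 0, 0 and 1 in those of OGD/R 1.5 h and 0, 3 and 6 in those of OGD/R 3 h, where the libraries overlapped with control. Anxa4 had 4, 6 and 6 sites in the control libraries, 4, 2 and 3 in those of OGD/R 1.5 h and 6, 1 and 3 in those of OGD/R 3 h, and its groups overlapped. Of 20 genes for phagocyte receptors and signalling, such as Itgam, Csf1r, Csf3r and Ptprc, Lyz1 alone had sites. Of 9 annotated genes of bone marrow progenitors and lymphocytes, 1 had a site in each group.

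Markers of other cell types differed between the same groups. Of 9 annotated erythroid genes, 1, 0 and 2 had a site. The beta globin genes Hbb-bs and Hbb-bt held 25 and 6 sites in each OGD/R 3 h library and 0 in every other library, with a median score of 1000, while Car2 held 1 in each control library. The intestinal epithelium genes together held 164 to 170 sites per OGD/R 3 h library and 42 to 58 elsewhere. These are sums over the list, and not every gene of it held more sites in OGD/R 3 h. The part of these marker differences in the sites of the 10 mRNAs was not tested.

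**Figure D5:**
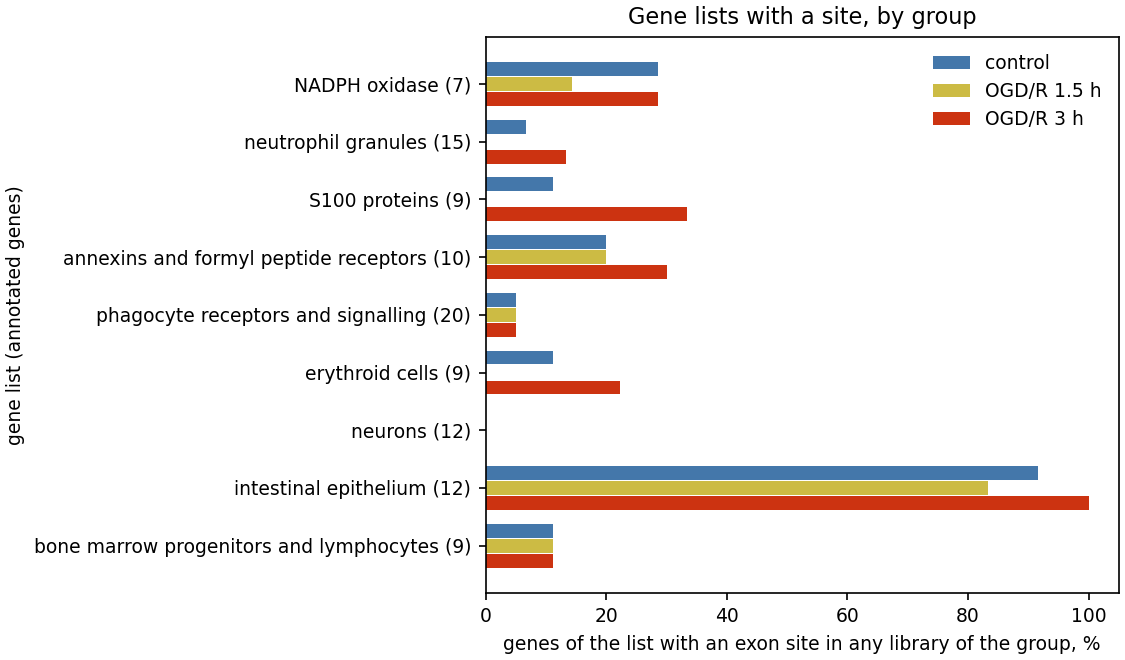
Percent of the annotated genes of each list (number in brackets) with an exon site in any library of the group (horizontal axis), with 1 bar per group. The neuron bars are at 0, the intestinal epithelium bars stand for 11, 10 and 12 of 12 genes, and lists that hold some of the 10 genes include them.

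The site counts most like the sum over the 10 mRNAs were those of Cdc34, Hbb-bs, Hbb-bt, Rhob and Sft2d2, which tied with a Pearson r of 0.999 over the 9 libraries. This is a description over libraries that were counted as 3 samples. In each OGD/R 3 h library they held 5, 25, 6, 12 and 8 sites, and in all other libraries 0. Cdc34 encodes a ubiquitin-conjugating enzyme, Rhob a small GTPase, and Sft2d2 a protein of vesicle traffic. Among the 1428 other mRNAs with a site in OGD/R 3 h, 469 had at least 5 sites, of which 22 (4.69%) had none in the other groups and 17 (3.62%) had all their sites in all 3 libraries.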

How the data were processed

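The 9 bisulfite libraries were analysed, and the 9 mock libraries, made without bisulfite, were not used here. The authors trimmed reads with Cutadapt (1.9.3 in the submitters' processing notes), used meRanGh for alignment to mm10 and meRanCall for the calls. Sites counted as credible from a level of 0.1 and a coverage of 10 upward. The deposited lists give a score per site, with no normalization by the authors. It mixes coverage and level, so no level, confidence interval or depth was derived.

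Python 3.11.15, numpy 2.4.6, samtools 1.23.1 (genome) and matplotlib 3.10.9 (figures) were used. Transcripts came from RefSeq (curated mRNAs and 13 mitochondrial genes). The representative transcript of each gene gave regions and runs, and a run joined sites at most 10 nt apart. A group's list is the union of its 3 libraries. The check of replicates against sampling noise was tested on simulated data. The members and gene lists were chosen with earlier results of these data known. The text names all members, genes of the lists with a site (at most 6 per list, by count alone for the intestinal, bone marrow and lymphocyte genes) and the genes most like the members by Pearson r, set at 3 but 5 were tied.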

Additional observations from a re-analysis of the deposited data

Results flagged for a closer look

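The 3 OGD/R 3 h libraries each held more sites in the 10 mRNAs than every control library, by 36.7 sites on average, while the 3 OGD/R 1.5 h libraries each held fewer, with a difference of -1.33 sites. The 2 deprivation times thus lay on opposite sides of control. The mRNA sites of all genes did so too. They numbered 4733 to 5269 per library in OGD/R 3 h, 3800 to 4146 in control and 3508 to 3749 in OGD/R 1.5 h. The direction is therefore not particular to the 10 mRNAs. The difference between the 2 deprivation times was not tested, and both comparisons use the same control libraries. The control count rests on Cyba, whose site 21 nt before the start codon was listed in all 3 control libraries and in none of OGD/R 1.5 h.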

How the results depend on the processing

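Of 104 values recomputed under alternatives, 92 stayed within set limits, 11 moved and 1 changed sign. The limit was a ratio for numbers of genes, a binomial interval for percents and the SD over libraries for the rest. That interval treats sites as separate, although sites of 1 stretch share reads. Leaving out 1 library gave 39 of the 92, although the libraries of a group were counted as 1 sample. With only sites that had no other site within 10 nt on the genome in their library, the OGD/R 3 h minus control difference became -0.333 sites, 1 member had a site in OGD/R 3 h (the S100a9 site in exon 2), 0% of sites lay in the CDS and the median score was 980. That S100a9 site is isolated on the genome only, since its neighbour lies across an intron, and in the spliced mRNA it belongs to a run. The control median score was 60.3 with sites of at least 2 or of all 3 libraries. Runs held 89.5% of OGD/R 3 h sites at 5 nt and 100% of control sites at 20 nt. Without 100 nt on either side of the start and stop codons, 0% of OGD/R 3 h sites counted as CDS. The mean over sites in place of the median gave a score of 892 in OGD/R 3 h. As a percent of the mRNA sites of a library, the differences from control were 0.741 in OGD/R 3 h and -0.0340 in OGD/R 1.5 h. These 2 are among the 11 that moved only because a percent was compared with a number of sites, and both kept their sign. Leaving out 1 library gave differences of 36.5 to 37 and of -1.5 to -1 sites, and control median scores of 41 to 53.3. A minimum score of 10 and gene bodies with introns changed none of these results beyond the limits.

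With the replicate number as a block (the mean of the differences between libraries of the same number), the differences in sites were 36.7 and -1.33, as without it. No test was run on either. Depth is unknown, so an unlisted cytosine may lie below the coverage or level that a call needs.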

Other observations

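In OGD/R 3 h, 2563 sites in exons of any RefSeq mRNA were called in all 3 libraries, and 163 of them, in 19 genes, were at the score cap in all 3. The 10 phagocyte and neutrophil mRNAs held 38 of the former and 26 of the latter. 87 of the capped sites, in 16 genes, were listed in no library of control or OGD/R 1.5 h, and 26 of these (29.9%) were in Anxa1, S100a8, S100a9 and Ngp. By gene these were 4 of the 16, and sites of 1 stretch share reads. Because the 10 genes were chosen by their known sites and scores, these shares only describe them. The other genes with at least 5 capped sites listed in OGD/R 3 h only, named here after their values were seen, were Hbb-bs with 25, the linker histone gene H1f3 with 8, Hbb-bt with 6 and Tmem38b with 5.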
